A study of Homo sapiens with 4 samples.

Results

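The S100 genes described here are S100A4, S100A6, S100A8, S100A9, S100A10, S100A11 and S100A12. They were chosen by name, with earlier results of these data known. All 7 were found among the 25680 gene rows of the deposited tables, and all 7 passed the filter on low counts. The genes were measured by RNA-seq in THP-1 (a human cell line from a monocytic leukaemia). Cells carried an shRNA against PIWIL4 (shPIWIL4, 2 libraries) or a scrambled shRNA (Scrambled, 2 libraries). Both groups received a lentiviral vector and were sorted by FACS at 48 hours after transduction, so the comparison is between transduced cells only, within 1 cell line and with 1 shRNA sequence named for the knockdown. Each library's group is that of its title, since the word scrambled also occurs in the treatment field of the shPIWIL4 samples. The labels do not say whether the replicates were separate cultures, so p-values measure the spread between these libraries, which may be technical. They name no batch, and an effect of batch and one of the shRNA cannot be told apart if batch and group coincide. The design asked which genes differ in expression when PIWIL4, a PIWI-family Argonaute gene, is knocked down in acute myeloid leukaemia cells.

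S100 proteins are small calcium-binding proteins built around a pair of EF-hand loops, and most of them work as dimers. Calcium binding exposes a surface that docks onto target proteins, among them annexins and non-muscle myosin. In monocytes and neutrophils S100A8 and S100A9 are abundant in the cytosol as the heterodimer calprotectin, which binds zinc and manganese, and together with S100A12 they act as alarmins once released. The genes of all 7 lie on chromosome 1, in the order S100A10, S100A11, S100A9, S100A12, S100A8, S100A6 and S100A4 in the RefSeq table.

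Total counts ran from 31458079 to 53657246 per library. PIWIL4 had 11.7 and 11.02 TPM in the shPIWIL4 libraries, against 23.7 and 23.6 TPM in the Scrambled libraries. It was lower by 2.15-fold (adjusted p = 1.3e-05; this and all adjusted p-values below come from the quasi-likelihood test of edgeR, unless DESeq2 is named, adjusted by Benjamini-Hochberg over all genes tested). TPM is the authors' level scaled by gene length and library, and CPM below is the count scaled to library size with TMM factors. Fits below that leave out 1 library hold 1 library in that group, so their spread comes from the other group alone. Their p-values and calls are not comparable with those from all 4 libraries. The ranges over 10 or 11 alternatives given below include these fits, so their ends can come from leaving out a library. Across all genes, 57.7% of the 16108 tested were called at an adjusted p under 0.05, 28.7% as higher and 29.1% as lower. With upper-quartile scaling 37.6% of the calls were higher, against 49.7% with TMM, since under that scaling the median of all genes stood at -0.12 on the log2 scale. All 10 markers set for the monocytic line were above 1 TPM in all 4 libraries. Their summed level was 3576 and 3469 TPM in shPIWIL4 and 1263 and 1282 TPM in Scrambled libraries. LYZ alone carried this gap, since the other 9 summed to 1076 and 1038 TPM in shPIWIL4 and 1077 and 1079 TPM in Scrambled libraries. Of these 9, TYROBP was called higher and CD4, PTPRC, CSF1R and MPO were called lower. These 5 are named after their values were seen, and the call of TYROBP was not kept with upper-quartile scaling (edgeR adjusted p = 0.055, within 2.3e-06 to 0.055 over 11 alternatives). Markers of T cells, red cell precursors and fibroblasts summed to at most 0.811 TPM, and those of keratinocytes to at most 0.0379 TPM. The 3 B cell markers summed to 2.06 and 2.36 TPM in shPIWIL4 and 6.63 and 6.62 TPM in Scrambled libraries, and the 3 megakaryocyte markers to between 4.05 and 6.33 TPM. Of the 7 neutrophil markers 3 were above 1 TPM throughout, with sums of 171 and 145 TPM in shPIWIL4 and 192 and 203 TPM in Scrambled libraries. The part of these markers in the results below was not tested.

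The S100 genes did not move together. S100A11 and S100A12 rose by more than 2-fold, S100A10 fell by more than 2-fold, S100A9 was slightly higher, S100A6 was slightly lower, and S100A8 and S100A4 were not called. In all, 5 of the 7 were called, 3 higher and 2 lower, beside the 57.7% called over all genes, and 1 was lower without Scrambled replicate 1 or without Scrambled replicate 2. For 3 of the 7 the change was called and at least 2-fold, beside 16.1% of all genes tested. The groups did not overlap in CPM for 5 of the 7, beside 78.6% of all genes tested. Over the 7 genes the log2 fold change had a median of 0.25, and over all genes tested -0.003. In this mixed RNA of a whole culture, a change in the share of cells that express a gene and a change in its RNA per cell cannot be told apart.

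**Figure D1:**
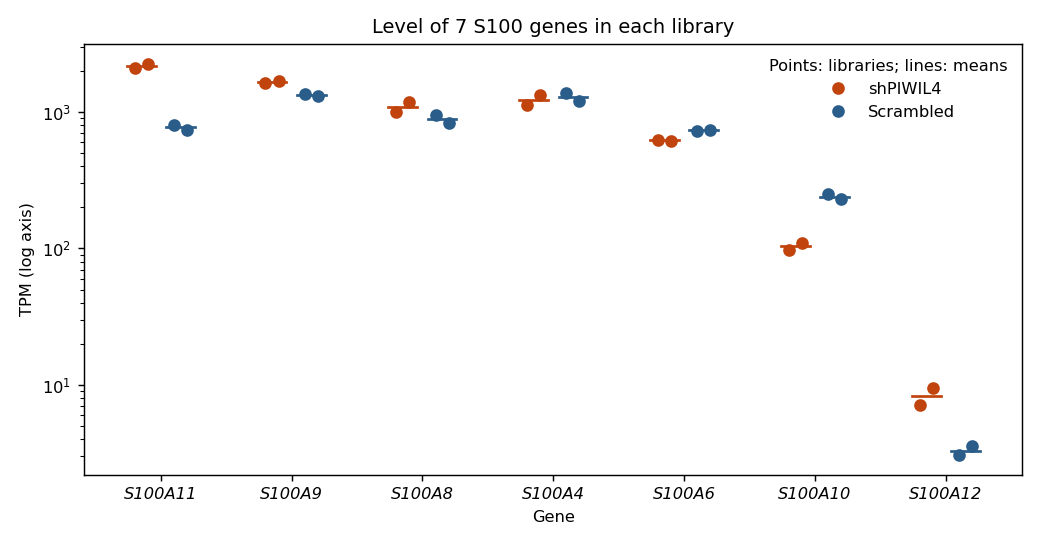
Levels of the 7 S100 genes in TPM on a log axis, with a point for each library, a line at each group mean, shPIWIL4 to the left and Scrambled to the right. S100A11 stood at 2089 and 2255 TPM in shPIWIL4 above 799.7 and 740.0 TPM in Scrambled libraries, S100A10 lay the other way round, and S100A12 was the lowest of the 7 in every library.

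S100A11 and S100A10, next to each other among the S100 genes on the chromosome, moved in opposite directions. S100A11 binds annexin A1 and annexin A2 in a calcium-dependent way. S100A10 is the light chain of the annexin A2 complex at membranes, and it is the family member whose EF-hand loops no longer bind calcium. The sequences of the 250 bases before the annotated start of both genes, and of S100A12, are shown because these are the 3 members with changes of at least 2-fold. They come from RefSeq on build GRCh38.p14, on the minus strand, at chr1:152037005-152037254 for S100A11, chr1:151993860-151994109 for S100A10 and chr1:153375622-153375871 for S100A12. The counts themselves were made on hg19, and no coordinate was carried between the builds. Capitals mark every match, on either strand, to 5 motifs, namely the TATA box TATAAA, the GC box GGGCGG, the AP-1 site TGANTCA, the PU.1 core GAGGAA and the C/EBP site TTNNGNAA.
S100A11: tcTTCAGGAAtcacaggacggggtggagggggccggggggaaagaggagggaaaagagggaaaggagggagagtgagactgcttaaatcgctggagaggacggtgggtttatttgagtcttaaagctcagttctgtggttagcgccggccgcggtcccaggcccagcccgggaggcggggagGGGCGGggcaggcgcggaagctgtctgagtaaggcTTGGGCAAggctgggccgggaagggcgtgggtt
S100A10: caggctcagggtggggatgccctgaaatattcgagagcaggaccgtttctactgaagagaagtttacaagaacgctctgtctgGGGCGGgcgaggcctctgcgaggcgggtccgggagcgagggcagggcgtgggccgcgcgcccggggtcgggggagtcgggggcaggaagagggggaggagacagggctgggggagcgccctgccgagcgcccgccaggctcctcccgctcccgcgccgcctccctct
S100A12: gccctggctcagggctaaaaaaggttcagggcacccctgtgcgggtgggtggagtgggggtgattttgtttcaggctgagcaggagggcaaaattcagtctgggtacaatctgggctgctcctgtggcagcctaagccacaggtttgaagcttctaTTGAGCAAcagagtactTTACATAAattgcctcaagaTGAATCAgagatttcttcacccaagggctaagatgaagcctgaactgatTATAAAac

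The windows of S100A11 and S100A10 held 63.6% and 71.2% G or C with 15 and 24 CpG pairs, and each held 1 GC box, 68 and 167 bases before the start. The S100A12 window held 49.2% G or C and 1 CpG pair, no GC box, a TATA box 8 bases before the start, an AP-1 match 57 bases before it and C/EBP matches at 94 and 77 bases. S100A11 also had C/EBP matches at 248 and 33 bases, and none of the 3 windows held the PU.1 core. No matches overlapped in these 3 windows. Across all 35116 windows the GC box was present in 42.6%, the C/EBP letters in 33.2%, the PU.1 core in 23.6%, TATAAA in 10.7% and the AP-1 site in 6.57%, and the median content of G or C was 58.0%. All 7 members had an entry. TATAAA also stood before S100A9 and S100A4, 29 and 31 bases from the start, and in the windows of 2 of the 3 S100A8 starts, at 29 and 126 bases, whereas S100A6 had 3 GC box matches, 2 of them overlapping. These matches describe letters only.

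S100A11 had 2089 and 2255 TPM in shPIWIL4 libraries 1 and 2, against 799.7 and 740.0 TPM in Scrambled libraries 1 and 2, from 29921 and 34332 counts against 7655 and 11425 counts. Both shPIWIL4 libraries were far above both Scrambled libraries. The mean was 2172 ± 117 TPM in shPIWIL4 and 770 ± 42.2 TPM in Scrambled (SD, n = 2 each). S100A11 rose by 1.45 on the log2 scale (SE 0.10), or 2.74-fold (edgeR adjusted p = 4.7e-06). Among all rows ordered by TPM, S100A11 stood at rank 63 and 57 in shPIWIL4 libraries and at rank 143 and 156 in Scrambled libraries. It was the most abundant of the 7 in shPIWIL4 libraries, whereas in Scrambled libraries S100A4, S100A9 and S100A8 were above it. RefSeq names 10 pseudogenes of S100A11, so reads may be shared with them and its level is uncertain.

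S100A10 had 97.85 and 109 TPM in shPIWIL4 libraries, against 248.7 and 229.9 TPM in Scrambled libraries, from 2489 and 2958 counts against 4229 and 6303 counts. Both shPIWIL4 libraries lay well below either Scrambled library. The mean was 104 ± 8.16 TPM in shPIWIL4 and 239 ± 13.3 TPM in Scrambled (SD, n = 2 each). The gene fell by 1.25 on the log2 scale (SE 0.10), or 2.38-fold lower (edgeR adjusted p = 1e-05). Its rank by TPM was 1585 and 1381 in shPIWIL4 libraries and 420 and 471 in Scrambled libraries. The ratio of S100A11 to S100A10 in TPM, formed after both values were seen, was 21.4 and 20.6 in shPIWIL4 and 3.21 and 3.22 in Scrambled libraries. ANXA2, the annexin that binds S100A10 and a gene singled out here after its values were seen, had 152 and 176 TPM in shPIWIL4 and 134 and 119 TPM in Scrambled libraries. It rose by 0.34 on the log2 scale (SE 0.11, adjusted p = 0.0243 in edgeR's test), while its complex partner fell. Without Scrambled replicate 2 the rise of ANXA2 was 0.24 with an edgeR adjusted p of 0.18, and over all 11 alternatives the adjusted p ran from 1.6e-07 to 0.18. In TPM, ANXA2 stood at 1.56 and 1.61 times S100A10 in shPIWIL4 libraries and at 0.537 and 0.517 times S100A10 in Scrambled libraries.

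Of the calgranulins, S100A12 and S100A9 were called higher and S100A8 was not called. S100A12, an alarmin of neutrophils and monocytes that binds the receptor RAGE, was the rarest member, with 7.12 and 9.54 TPM in shPIWIL4 libraries against 3.06 and 3.55 TPM in Scrambled libraries. These levels rest on 80 and 114 counts in shPIWIL4 libraries and 23 and 43 counts in Scrambled libraries, the smallest counts among the 7 genes. The groups did not overlap, with means of 8.33 ± 1.71 TPM in shPIWIL4 and 3.31 ± 0.345 TPM in Scrambled (SD, n = 2 each). S100A12 rose by 1.28 on the log2 scale (SE 0.24), or 2.42-fold (edgeR adjusted p = 0.00139). The SE of S100A12 was the widest of the 7.

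S100A9, the larger calprotectin subunit, had 1618 and 1692 TPM in shPIWIL4 libraries, against 1357 and 1301 TPM in Scrambled libraries. Both shPIWIL4 libraries were higher, by less than the changes of S100A11 and S100A12. The means were 1655 ± 52.2 TPM in shPIWIL4 and 1329 ± 39.6 TPM in Scrambled (SD, n = 2 each). The log2 fold change of 0.27 (SE 0.09), or 1.21-fold higher, had an edgeR adjusted p of 0.0278. The call was not kept in several other fits. The log2 fold change was 0.35 without Scrambled replicate 1 (edgeR adjusted p = 0.062), 0.22 without Scrambled replicate 2 (adjusted p = 0.25), 0.15 with upper-quartile scaling (adjusted p = 0.18) and 0.21 with a stricter filter (adjusted p = 0.055). Over 11 alternatives the adjusted p ran from 0.00061 to 0.25, with 6 past the threshold. Of all genes tested, 46% were called without Scrambled replicate 1, 43.5% without Scrambled replicate 2, 61.7% without shPIWIL4 replicate 1 and 60.8% without shPIWIL4 replicate 2. The share was 57.7% with RLE factors, 56.9% with upper-quartile factors, 56.5% with library totals, 46.8% with DESeq2, 45.4% with no filter, 60.4% with the stricter filter and 50.4% with the replicate number as a block.

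S100A8, the other calprotectin subunit, had 1001 and 1172 TPM in shPIWIL4 libraries, against 941 and 832 TPM in Scrambled libraries. The groups were separate in TPM but overlapped in CPM, at 249.1 and 302 CPM in shPIWIL4 against 249.6 and 214 CPM in Scrambled libraries. The means were 1086 ± 121 TPM in shPIWIL4 and 886 ± 76.7 TPM in Scrambled (SD, n = 2 each). The log2 fold change of 0.25 (SE 0.11) did not pass the threshold (adjusted p = 0.0882, edgeR). Among the fits of all 4 libraries it passed only with no filter on low counts (0.29, edgeR adjusted p = 0.039), and with upper-quartile scaling it was 0.13 (adjusted p = 0.37). The log2 fold change was 0.39 without Scrambled replicate 1 and 0.39 without shPIWIL4 replicate 1, fits that left 1 library in a group. Over 11 alternatives the log2 fold change ran from 0.11 to 0.39. The ratio of S100A8 to S100A9 in TPM was 0.619 and 0.693 in shPIWIL4 libraries and 0.693 and 0.640 in Scrambled libraries. These ratios overlapped between the groups, with means of 0.656 ± 0.0524 in shPIWIL4 and 0.666 ± 0.0379 in Scrambled (SD, n = 2 each). An exact two-sided permutation test of the log2 ratio gave p = 0.667, where 0.333 is the smallest value that 2 libraries against 2 allow.

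S100A6 and S100A4 showed small or no called changes. S100A6, also known as calcyclin, binds the calcyclin-binding protein CACYBP and several annexins. It had 624 and 610.5 TPM in shPIWIL4 libraries, against 723 and 737 TPM in Scrambled libraries. Both shPIWIL4 libraries were lower, and replicates lay close together, with means of 617 ± 9.21 TPM in shPIWIL4 and 730.1 ± 9.46 TPM in Scrambled (SD, n = 2 each). S100A6 fell by 0.29 on the log2 scale (SE 0.08), or 1.22-fold (edgeR adjusted p = 0.0116). Among the alternatives with all 4 libraries the edgeR adjusted p of S100A6 ran from 0.0018 with upper-quartile scaling to 0.085 with a replicate block, where it was not called. Without Scrambled replicate 1 the log2 fold change was -0.25, and without Scrambled replicate 2 it was -0.29, fits that left 1 library in a group.

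S100A4, which binds the heavy chain of non-muscle myosin encoded by MYH9 and is linked to cell motility, had 1131 and 1330.0 TPM in shPIWIL4 libraries, against 1363 and 1209 TPM in Scrambled libraries. The groups overlapped, and the spread within each was larger than the difference between the means, 1230.0 ± 141 TPM in shPIWIL4 and 1286 ± 109 TPM in Scrambled (SD, n = 2 each). The log2 fold change of -0.11 (SE 0.12) was not called (adjusted p = 0.457, edgeR). Its sign turned to 0.03 without Scrambled replicate 1 and to 0.04 without shPIWIL4 replicate 1, and it was -0.25 without shPIWIL4 replicate 2. These fits left 1 library in a group. In the alternatives that kept all 4 libraries S100A4 was not called. As annotated in RefSeq, S100A4 overlaps the low-level gene S100A5 and LOC101928034. S100A8 overlaps S100A15A and S100A7A, and S100A6 overlaps LOC124904423. The strand setting of the counting is not given in the sources used here.

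**Figure D2:**
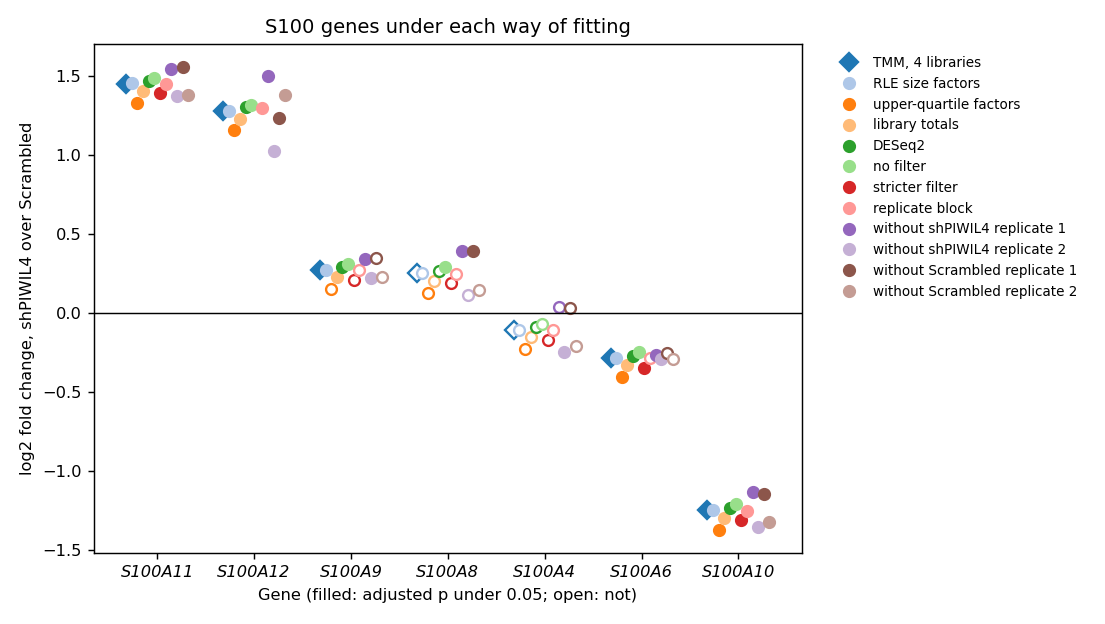
Log2 fold change of each S100 gene, shPIWIL4 over Scrambled, under the TMM fit of 4 libraries (diamonds) and each alternative (circles); filled symbols had an adjusted p under 0.05. S100A11 stayed between 1.33 and 1.56 and S100A10 between -1.37 and -1.14, both filled throughout. S100A9, S100A8 and S100A6 changed between filled and open. S100A4 was filled only without shPIWIL4 replicate 2, a fit with 1 shPIWIL4 library.

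As a group the 7 genes took 0.657% and 0.718% of all TPM in shPIWIL4 libraries, against 0.544% and 0.505% in Scrambled libraries. The summed level was 6873 ± 432 TPM in shPIWIL4 and 5244 ± 271 TPM in Scrambled (SD, n = 2 each). The log2 difference was 0.39, with an exact two-sided permutation p of 0.333, the smallest that this design allows. S100A11 supplied 31.8% and 31.4% of the sum in shPIWIL4 libraries and 14.7% and 14.65% in Scrambled libraries. Without S100A11 the other 6 genes summed to 4478 and 4923 TPM in shPIWIL4 libraries and 4636 and 4313 TPM in Scrambled libraries, so that the groups then overlapped.

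The remaining family members were mostly rare. Of 13 other S100 genes, 10 had at least 1 count and 7 passed the filter, of which 1 rose and 5 fell, beside 28.7% higher and 29.1% lower over all genes tested, with a median log2 fold change of -0.98. S100P, a calcium-binding protein of epithelial and myeloid cells, was the exception, with 145 and 156 TPM in shPIWIL4 libraries against 84.4 and 79.5 TPM in Scrambled libraries. It rose by 0.83 on the log2 scale (SE 0.10, adjusted p = 0.00012 in edgeR's test). S100A1, best known from heart muscle, had 15.3 and 11.8 TPM in shPIWIL4 and 28.5 and 26.5 TPM in Scrambled libraries, and fell by 1.07 (SE 0.15). S100A13, which takes part in the release of growth factors that lack a signal peptide, had 19.6 and 19.7 TPM in shPIWIL4 and 24.4 and 23.9 TPM in Scrambled libraries, with a log2 fold change of -0.34.

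S100A3, S100A5 and S100A16 were below 3 TPM in every library and had log2 fold changes of -2.19, -1.40 and -0.98 from 9 to 41 counts per library. S100A3 would not have passed the filter on its shPIWIL4 libraries alone, so its fall is not independent of the filter. S100A2 had between 0.892 and 1.55 TPM and was not called (log2 fold change -0.04, edgeR adjusted p = 0.929, and 0.34 to 1 over 10 alternatives). The number of lower genes among these 7 depended on the libraries and the tool. It was 2 without Scrambled replicate 1, 3 without Scrambled replicate 2 and 2 with DESeq2, against 5 with all 4 libraries in edgeR. Without Scrambled replicate 1, S100A5, S100A13 and S100A16 were not called, with edgeR adjusted p-values of 0.078, 0.2 and 0.13. Without Scrambled replicate 2 those of S100A13 and S100A16 were 0.084 and 0.086, and without shPIWIL4 replicate 1 that of S100A16 was 0.1. Over all alternatives the adjusted p ran from 0.001 to 0.078 for S100A5, from 0.0041 to 0.2 for S100A13 and from 0.016 to 0.25 for S100A16. S100B had 2 to 9 counts per library, S100A7 and S100A14 had at most 2, and S100A7A, S100G and S100Z were at 0 in all 4 libraries.

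**Figure D3:**
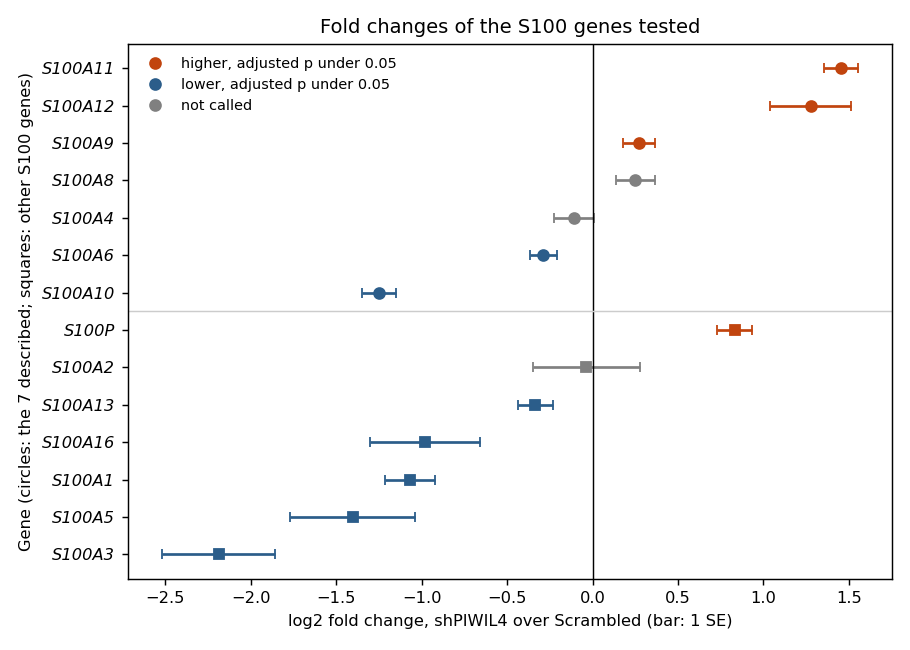
Log2 fold changes, shPIWIL4 over Scrambled, of the 14 S100 genes tested, with bars of 1 SE; circles are the 7 genes described, squares the other family members. S100A11, S100A12, S100A9 and S100P lay to the right as called rises. S100A3, with a log2 fold change of -2.19 from only 9 to 41 counts per library, lay farthest to the left.

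A list of 17 genes held 12 for proteins that bind S100 proteins inside the cell and 5 of the plasminogen system, on which the complex of annexin A2 and S100A10 acts at the cell surface. In all, 16 were tested, 11 rose and 3 fell, beside 28.7% higher and 29.1% lower over all genes tested, with a median of 0.35 on the log2 scale, against -0.003 over all genes. Split after the values were seen, 9 rose and 2 fell among the 12 binding partners, and 2 rose and 1 fell among the 4 plasminogen system genes tested. Without Scrambled replicate 2, 7 were higher and 3 lower. ANXA1, the membrane-binding annexin that pairs with S100A11, had 38.4 and 41.5 TPM in shPIWIL4 libraries against 18.4 and 18.3 TPM in Scrambled libraries. It rose by 1.08 on the log2 scale (SE 0.10, adjusted p = 3e-05 in edgeR's test), in the same direction as S100A11. ANXA11, an annexin that binds S100A6, rose by 0.67 (SE 0.08).

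AHNAK, a giant scaffold protein that binds the complex of annexin A2 and S100A10, had 63.3 and 69.5 TPM in shPIWIL4 against 122 and 118 TPM in Scrambled libraries. It fell by 0.90 (SE 0.10, adjusted p = 6.8e-05 in edgeR's test), in the same direction as S100A10. PLAUR, the urokinase receptor that focuses plasmin formation at the cell surface, had 42.5 and 37.8 TPM in shPIWIL4 and 76.7 and 81.0 TPM in Scrambled libraries, and fell by 1.02 (SE 0.09). The third gene that fell was PPFIBP1, which encodes a liprin that binds S100A4 and was picked out after the values were seen, at 8.32 and 8.81 TPM in shPIWIL4 and 12.4 and 11.98 TPM in Scrambled libraries. CACYBP and MYH9, the partners of S100A6 and S100A4, were looked at after their values were seen. CACYBP rose by 0.34 and MYH9 by 0.37, with edgeR adjusted p-values of 0.00726 and 0.0182. Without Scrambled replicate 2 the value of CACYBP was 0.32 (edgeR adjusted p = 0.064, within 4.9e-06 to 0.064 over 11 alternatives). Without Scrambled replicate 1 that of MYH9 was 0.32 (adjusted p = 0.11, within 2.1e-06 to 0.11 over 11 alternatives).

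Among genes for receptors of secreted S100 proteins the calls went both ways, but the lower ones came from low counts only. Of 11 genes, all tested, 5 rose and 2 fell, with a median log2 fold change of 0.21, and 1 fell with DESeq2. The 2 that fell, LY96 and MCAM, passed the filter only through the Scrambled libraries, where they were higher. Their falls are therefore not independent of the filter. With the stricter filter 7 were tested, and 0 of these fell. Over all genes tested 57.7% were called, 28.7% higher and 29.1% lower. TLR4, the endotoxin receptor that also responds to calprotectin, had 14.03 and 14.35 TPM in shPIWIL4 libraries against 6.85 and 7.70 TPM in Scrambled libraries, and rose by 0.92 (SE 0.10). Its adaptor MYD88 rose by 0.56 (SE 0.09) and the adhesion molecule gene ALCAM by 0.66 (SE 0.08). CD36, a scavenger receptor reported to bind calprotectin with its fatty acid load, had 5.49 and 5.79 TPM in shPIWIL4 and 0.354 and 0.539 TPM in Scrambled libraries. In edgeR the adjusted p of these 4 genes was at most 0.00042. The fifth gene that rose was BSG, a membrane immunoglobulin-family gene outside the naming rule, at 784 and 557 TPM in shPIWIL4 and 398 and 472 TPM in Scrambled libraries.

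The remaining 6 receptor genes were picked out after their values were seen. CD33 and NPTN were well expressed, at 85.5 to 95.2 TPM and 55.6 to 72.7 TPM, and were not called (edgeR adjusted p = 0.562 and 0.054). Over 11 alternatives the log2 fold change ran from -0.06 to 0.14 for CD33 and from 0.09 to 0.27 for NPTN. CD33 was called in 0 of 11 alternatives. NPTN was called in 4, among them the fits without shPIWIL4 replicate 1 and without shPIWIL4 replicate 2, each with 1 shPIWIL4 library. The other 4 had low levels. AGER, which encodes RAGE, had 12 and 16 counts in shPIWIL4 and 9 and 20 counts in Scrambled libraries, at most 0.060 TPM. That TPM rests on a recovered gene length of 12824 bases, which was not checked against a transcript. LY96, which encodes the TLR4 co-receptor MD-2, had 3 and 7 counts in shPIWIL4 and 9 and 13 counts in Scrambled libraries. Its log2 fold change was -1.40 (SE 0.51), with an edgeR adjusted p of 0.0399 that was 0.14, 0.12 and 0.22 without Scrambled replicate 1, Scrambled replicate 2 and shPIWIL4 replicate 1, in a range of 0.022 to 0.28 over 10 alternatives. MCAM, an adhesion molecule gene with 7 and 9 counts in shPIWIL4 and 27 and 33 counts in Scrambled libraries, was the other gene that fell, by 2.18 (SE 0.36, edgeR adjusted p = 0.00066). CD14 had 2.85 and 1.92 TPM in shPIWIL4 and 1.92 and 2.24 TPM in Scrambled libraries and was not called (edgeR adjusted p = 0.605, and 0.11 to 0.96 over 10 alternatives).

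**Figure D4:**
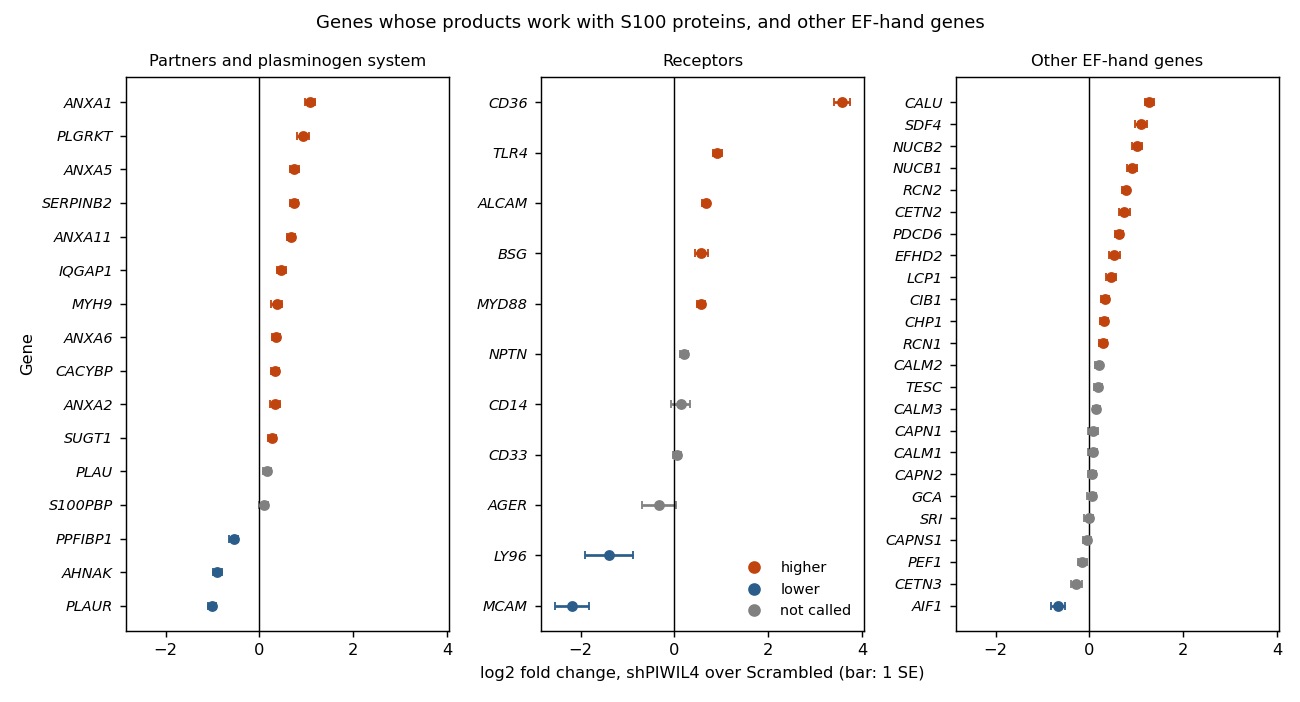
Log2 fold changes, shPIWIL4 over Scrambled, with bars of 1 SE, for genes of S100 partners with the plasminogen system, S100 receptors and other EF-hand proteins. In the first panel ANXA1 was the highest at 1.08 and PLAUR the lowest at -1.02, and CD36 at 3.57 stood far above the other receptors.

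Of 9 myeloid transcription factor genes set beside the S100 genes, 4 rose and 0 fell in edgeR, with a median log2 fold change of 0.06. Over all genes tested 57.7% were called, 28.7% higher and 29.1% lower. At an unadjusted p under 0.05, 0 of the 9 were lower, and 0 were lower with DESeq2. KLF4, which promotes monocyte differentiation, had 15.7 and 13.3 TPM in shPIWIL4 against 6.68 and 8.81 TPM in Scrambled libraries, a rise of 0.85 (SE 0.13). STAT3, HIF1A and IRF8 rose by 0.52, 0.31 and 0.31. Without Scrambled replicate 1, 2 of the 9 were higher, with edgeR adjusted p-values of 0.086 for HIF1A and 0.082 for IRF8. Without Scrambled replicate 2 that of IRF8 was 0.09, and over 11 alternatives the ranges were 0.00013 to 0.086 for HIF1A and 0.0011 to 0.09 for IRF8. Without shPIWIL4 replicate 1, 3 of the 9 were lower. CEBPA and SPI1, myeloid regulators singled out after their values were seen, had overlapping groups. CEBPA had 324 and 276 TPM in shPIWIL4 and 282 and 301 TPM in Scrambled libraries. SPI1, which encodes PU.1, had 170.3 and 118 TPM in shPIWIL4 and 142 and 169 TPM in Scrambled libraries. The log2 fold change of SPI1 was -0.16 (edgeR adjusted p = 0.376). It was -0.41 without shPIWIL4 replicate 1 and 0.07 without shPIWIL4 replicate 2, fits that left 1 shPIWIL4 library.

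Classical monocyte genes, which in blood are expressed together with S100A8, S100A9 and S100A12, moved both ways. Of 17 genes 13 were tested, 8 rose and 2 fell, beside 28.7% higher and 29.1% lower over all genes tested, with a median log2 fold change of 0.68, and 1 fell without Scrambled replicate 1 or without Scrambled replicate 2. LYZ, which encodes lysozyme, had 2499 and 2431 TPM in shPIWIL4 libraries against 187 and 203 TPM in Scrambled libraries, so that it stood below S100A9 in Scrambled libraries and above it in shPIWIL4 libraries. The nuclear antigen gene MNDA rose by 1.14 (SE 0.10) and the membrane protein gene MS4A6A by 1.62 (SE 0.09). FCN1, a secreted lectin gene of monocytes named here after its values were seen, had 30 and 23 counts in shPIWIL4 libraries and 1 and 0 counts in Scrambled libraries. It passed the filter only through the shPIWIL4 libraries, so its rise, 1 of the 8, is not independent of the filter. With the stricter filter 6 of the list were tested, and 4 rose. VCAN, which encodes the matrix proteoglycan versican, went the other way, with 0.762 and 0.814 TPM in shPIWIL4 and 2.73 and 2.70 TPM in Scrambled libraries. TREM1, an activating receptor gene named after its values were seen, was the other that fell, at 2.40 and 2.44 TPM in shPIWIL4 and 3.13 and 3.15 TPM in Scrambled libraries. Its edgeR adjusted p of 0.0224 was 0.16 without Scrambled replicate 1 and 0.12 without Scrambled replicate 2, in a range of 0.0071 to 0.16 over 10 alternatives. The adjusted p of LYZ, MNDA, MS4A6A and VCAN was at most 1.3e-05 in edgeR.

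Among 24 genes of other EF-hand proteins, all tested, 12 rose and 1 fell, with a median log2 fold change of 0.24. Over all genes tested 57.7% were called, 28.7% higher and 29.1% lower. The 4 with the smallest p encode calcium-binding proteins of the secretory pathway. CALU had 114 and 124 TPM in shPIWIL4 libraries against 47.2 and 48.2 TPM in Scrambled libraries, a rise of 1.28 (SE 0.09). NUCB2, NUCB1 and RCN2 rose by 1.01, 0.91 and 0.77. AIF1, a macrophage actin-binding protein gene named after its values were seen, was the one that fell. It had 0.882 and 1.06 TPM in shPIWIL4 and 1.43 and 1.56 TPM in Scrambled libraries. These levels rest on a recovered gene length of 9312 bases, which was not checked against a transcript.

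Between S100A10 and S100A4 the RefSeq table places 81 other genes, mostly of skin barrier proteins, of which 50 were listed in the deposited tables. Only 8 of these 50 had any count and 4 were tested, namely TCHH, FLG, HRNR and S100A5, of which the first 3 encode large proteins that begin with an S100-like domain. TCHH, the trichohyalin gene of hair follicles, had 41.5 and 35.4 TPM in shPIWIL4 libraries against 5.52 and 6.31 TPM in Scrambled libraries. It rose by 2.65 (SE 0.10, adjusted p = 2.2e-07 in edgeR's test). FLG had 8 and 3 counts in shPIWIL4 and 17 and 20 counts in Scrambled libraries, and HRNR had 33 and 18 counts in shPIWIL4 and 27 and 50 counts in Scrambled libraries, few reads for either. FLG fell by 2.01 and HRNR fell by 0.86 on the log2 scale. FLG passed the filter only through the Scrambled libraries, so its fall is not independent of the filter. The value of FLG ran from -2.86 without shPIWIL4 replicate 1 to -1.46 without shPIWIL4 replicate 2. HRNR was not called without Scrambled replicate 2 (edgeR adjusted p = 0.14) or without shPIWIL4 replicate 2 (adjusted p = 0.2), in a range of 0.00075 to 0.21 over 10 alternatives. Keratin markers of keratinocytes were at or near 0, as given above.

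The patterns most like the 2 members with the largest fold changes were looked up among 14215 named genes, by the Euclidean distance of centred log2 CPM over the 4 libraries. For S100A11 the closest were LAMP5, a lysosome-associated membrane protein gene, at a distance of 0.0289, IFIT1, an interferon-induced gene, at 0.0456, and MIP, the lens aquaporin gene, also at 0.0456. LAMP5 had 274 and 308 CPM in shPIWIL4 and 109 and 100.3 CPM in Scrambled libraries. IFIT1 was far lower, at 2.92 and 3.27 CPM in shPIWIL4 and 1.13 and 1.06 CPM in Scrambled libraries. MIP was lower still, at 0.809 and 0.904 CPM in shPIWIL4 and 0.315 and 0.265 CPM in Scrambled libraries. For S100A12 the closest were NOMO3, GRHL1 and CKMT1B, at distances of 0.125, 0.126 and 0.131. GRHL1 had 2.33 and 2.89 CPM in shPIWIL4 and 0.976 and 1.10 CPM in Scrambled libraries. CKMT1B was lower, at 0.414 and 0.558 CPM in shPIWIL4 and 0.157 and 0.170 CPM in Scrambled libraries. NOMO3 and CKMT1B each have near-identical copies in the genome, so their counts are uncertain. With 4 libraries such likeness is a description only.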

How the data were processed

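RNA-seq libraries of THP-1 cells were compared, 2 with shPIWIL4 and 2 with a scrambled shRNA. Per the submitters' processing notes, the authors used STAR, featureCounts and DESeq2 with build hg19. Their versions, with the annotation and strand setting, were not given in the sources used here. For each library the authors deposited raw counts of reads by gene, beside FPKM and TPM. TPM was used for levels, FPKM only to recover gene lengths, from which the deposited TPM was recomputed to within 6.49e-05%. The table of the whole series was not used. As deposited, 28 gene names read as dates, which were tested but are not named.

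The counts entered edgeR 4.0.16 (R 4.3.3), with 16108 genes kept by filterByExpr (minimum count 10, minimum total 15), with TMM scaling, the robust quasi-likelihood test with group as the only term, and Benjamini-Hochberg adjustment over all genes tested, called under 0.05. The SE of a log2 fold change is its absolute value over the square root of its F. TMM centres on genes taken to be stable, so a direction is relative to the bulk of the genes. Replicates differed by more than sampling noise, with a chi-square per gene of 27.9 in shPIWIL4 and 7.89 in Scrambled. In counts simulated with this comparison's means and library sizes over 15910 genes, 50 genes were changed at each fold. The share recovered was 12% for a 1.25-fold change, 64% for 1.5-fold, 78% for 2-fold and 98% for 4-fold, and 7 of 133 calls were false. In the data 57.7% of genes were called, so the adjustment was stricter in the simulation. These shares therefore do not carry over to the data. Total counts ran from 31458079 to 53657246.

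The members and lists were chosen with earlier results of these data known. Named genes are PIWIL4, the 7 members, the other S100 genes tested, up to 4 called genes of each list with the smallest p, and the 3 genes closest to the 2 members with the largest fold changes; others are marked in the text. Alternatives were RLE, upper-quartile and unscaled library sizes, DESeq2 1.42.0, no filter, a filter at 5 CPM, a replicate block and leaving out each library. Leaving out libraries for the summed levels and the subunit ratio was chosen after seeing the data. Without a shPIWIL4 library the spread comes from the Scrambled pair alone, which had the smaller chi-square per gene.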

Additional observations from a re-analysis of the deposited data

How the results depend on the processing

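S100A10, S100A11 and S100A12 kept their direction and stayed past the threshold under all alternatives that tested them; the stricter filter did not test S100A12 and so left 1 member higher. S100A9 did not pass the threshold with upper-quartile scaling (0.15), the stricter filter (0.21) and the replicate block (0.27, adjusted p = 0.14 in edgeR), S100A6 with the replicate block (-0.29, adjusted p = 0.085 in edgeR), which left 1 member lower, and S100A8 was called with no filter (0.29). The titles number the libraries 1 and 2 in both groups, as exp. rep1 and exp. rep2. Deviations of same-numbered libraries from their group means had a weak negative correlation (r = -0.31 over 16108 genes). With 1 deviation per gene in each group, this cannot show whether the numbers mark shared experiments. Same-numbered libraries were not treated as pairs, and the block called 3921 genes higher and 4197 lower. Leaving out 1 library gave 2 to 4 members higher and 1 to 3 lower, with log2 fold changes of -0.251 to 0.038 for S100A4, -0.29 to -0.25 for S100A6, 0.11 to 0.39 for S100A8 and 0.22 to 0.35 for S100A9. The log2 difference in the S100A8 to S100A9 ratio, -0.02 over all libraries, ran from -0.11 to 0.057.

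For the lists, lower genes with DESeq2 numbered 2 for other S100 genes, 1 for fused-type S100 genes, 1 for receptors, 1 for classical monocyte genes and 1 for chromosomal neighbours. With the stricter filter they numbered 2, 0, 0, 1 and 0 for the same lists and 2 for other EF-hand genes, and 4 classical monocyte genes were higher. With library totals 1 fused-type gene and 2 EF-hand genes were lower, with no filter 1 receptor, and with the replicate block 1 monocyte gene. Upper-quartile scaling gave 3 EF-hand genes lower and 2 transcription factors higher. Leaving out 1 library gave 2 to 5 other S100 genes, 1 to 2 fused-type genes, 1 to 2 receptors, 0 to 3 transcription factors, 1 to 2 monocyte genes and 1 to 2 EF-hand genes lower, and 7 to 12 partners and 2 to 5 transcription factors higher. Among single genes that were not called, the sign turned for S100A2 (0.002 with no filter, -0.442 to 0.298 without 1 library), CEBPA (0.011 with DESeq2, 0.034 with no filter, -0.09 to 0.088 without 1 library), CD14 (-0.137 to 0.373 without 1 library), SPI1 (-0.406 to 0.068 without 1 library) and CD33 (-0.061 with upper-quartile scaling, 0 with the stricter filter, -0.005 to 0.141 without 1 library). The stricter filter tested fewer genes; the cause of the other changes was not tested. Low counts limit S100A12, S100A3, S100A5, S100A16, AGER and LY96.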
